A study of Mus musculus with 5 samples.

Results

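In the liver of C57BL/6J mice at postnatal day 14 (P14), 265 of 2106 hepatocytes carried the transcripts of dividing cells, and these 265 cells are described here. They were chosen from 1 single-cell library by 10 genes of late cell cycle phases: Mki67, Top2a, Cdk1, Ube2c, Birc5, Ccnb1, Cenpf, Nusap1, Cdc20 and Tpx2. A barcode was taken as a hepatocyte when it had at least 5000 unique molecular identifiers (UMIs, counted transcript molecules), 10 to 30% of them from mitochondrial genes, and at least 1% from Alb, Apoa1 and Ttr together. A hepatocyte was called dividing when the 10 genes summed to at least 3 per 10000 UMIs with at least 3 of them detected, and resting when they summed to under 0.5 per 10000, which held for 1572 cells. A further 269 cells lay between. Because measured values chose the cells, the levels of these 10 genes are a description and not a finding.

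The series holds 5 droplet libraries of liver cells from C57BL/6J mice, 1 per condition: untreated mice at postnatal day 14, an adult control, and adults operated on and sampled 24, 48 or 96 h later. The protocol text gives 8 weeks as the age of all adults, the control included. The operation, partial hepatectomy (PHx), takes out a large part of the liver and sets off regrowth. One protocol text lists the adult control among the operated animals, while its title and source name it a control, and it was treated as a control. No transgene or drug is named in the labels, and neither the number nor the sex of the animals is given. Livers were dissociated by perfusion and dead cells were removed on a kit, so the cells are those that survived both steps. With 1 P14 library there is no replicate within P14: values there are given with 95% intervals that cover counting error only, and tests are made across the 3 PHx libraries.

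Hepatocytes of the young liver divide as the organ grows, whereas those of the adult liver rarely do until tissue is lost. A dividing cell first licenses and copies its DNA with the MCM helicase, PCNA and the ribonucleotide reductase that supplies deoxynucleotides, under E2F transcription factors and cyclin E. It then enters mitosis under cyclins A and B with Cdk1, builds a spindle, attaches it through kinetochores, separates its chromatids through the anaphase-promoting complex, and splits by cytokinesis. Hepatocytes of rodents often leave out the last step around weaning and become binucleate and polyploid.

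The P14 library held 136110607 UMIs, the highest total of the 5 libraries, of which the lowest held 80927744. The 265 dividing cells had a median of 37811 UMIs, 5076 detected genes, 21.3% mitochondrial UMIs and 9.79% of UMIs from Alb, Apoa1 and Ttr. Each was paired with the resting cell of the same library nearest in total UMIs, which gave 265 pairs with a largest difference of 9.08%. The paired resting cells had a median of 37807 UMIs, 4443 detected genes, 21.1% mitochondrial UMIs and 11.5% from Alb, Apoa1 and Ttr. At equal UMI counts, then, the dividing cells held more different genes. All 12 hepatocyte markers were detected in both groups, at a median of 1682 per 10000 UMIs in dividing and 1935 in resting cells. None of the 265 barcodes was shared with a barcode of at least 5000 UMIs in another library.

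Not all of the 265 were free of other cells' transcripts. In 7 of them (2.64%, exact binomial interval 1.07 to 5.37%) the 77 markers of 8 other liver cell classes summed to at least 50 UMIs, against 9 of the 1572 resting cells (0.573%, 0.262 to 1.08%). The median over the dividing cells was 4 such UMIs. The largest was 1 cell with 5133 UMIs of erythroid markers, among them 2371 of the beta globin gene Hbb-bs and 1102 of the alpha globin gene Hba-a1. Another held 1415 UMIs of Spp1 and 81 of Sox9, both high in bile duct cells, and one more held 55 UMIs of Vpreb3 and 42 of Ebf1, genes of B cell precursors. The other 4 carried Lyz2, Cd52, Ptprb or Spp1 as their leading marker. All 7 also carried hepatocyte transcripts, from 5.60 to 12.4% of UMIs from Alb, Apoa1 and Ttr. Counts of genes and the values of several genes that differ without them are given both ways. Of doublet scores from Scrublet, the highest 8% of P14 barcodes took 18 of the dividing and 149 of the resting cells.

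Of the 10 genes of the rule, Mki67, which coats mitotic chromosomes, was at a level of 378 CPM (its UMIs per 1000000 UMIs outside the rule genes and the mitochondrial genes) in dividing cells and 1.64 CPM in the paired resting cells. Top2a, the topoisomerase that untangles DNA, was at 290.3 against 1.64 CPM. Ube2c, a ubiquitin carrier of the anaphase-promoting complex, was at 299.9 against 1.51 CPM. Detection was uneven within the group: 97% of the dividing cells held Mki67 and 96.6% held Birc5, a subunit of the chromosomal passenger complex, but 70.6% held Nusap1, which stabilises spindle microtubules. All 10 genes were found together in 125 of the 265 cells, and only 3 of the 10 in 3 cells. The summed level had a median of 14.5 per 10000 UMIs, with a lower quartile of 6.02, and the highest reached 44.9. Just inside the threshold were cells at 3.04, 3.05 and 3.16, and just outside it cells at 2.98, 2.96 and 2.96. Another 2 cells passed the level with too few genes. The droplets without cells carried these genes at 2.37 per 10000 UMIs of free RNA, at a median of 460 UMIs a droplet, and 37.3% of resting cells held at least 1 such UMI at a summed level of 0.111 per 10000. In 55 barcodes with at least 1% of UMIs from the neutrophil genes S100a8 and S100a9, with a median of 7125 UMIs, 18.2% held one. Their summed level was 6.21 per 10000, above that of free RNA and of resting cells, so they are no measure of background.

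Outside the rule, every listed gene of mitosis and of DNA replication had a higher CPM in the 265 cells than in resting cells, while 28 of 29 secreted plasma protein genes had a lower one. Of 6927 genes with a mean of at least 10 CPM, 1196 (17.3%) were at least 1.5-fold higher in dividing cells and 65 (0.938%) at least 1.5-fold lower, as log2 ratios of CPM plus 1. A gene under 10 CPM in resting cells passes this mean only where dividing cells are high, as 598 of the 6927 did, so counts and medians over genes that passed are descriptions. Of all 14961 genes with a UMI, 10363 had a higher CPM in dividing cells and 4598 a lower one. The median gene was higher by 0.22 on the log2 scale. That offset was smaller for abundant genes, from 0.28 for genes at 10 to 30 CPM to -0.12 for genes above 1000 CPM. With factors of the trimmed mean of M-values (TMM), the median gene moved by -0.23 to -0.013, with 622 genes higher and 286 lower. Without the 7 cells with other classes' markers the counts were 1164 and 65. Ratios near 0 depend on this offset.

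The highest ratios belonged to Hist1h2ap, a replication-dependent histone H2A gene, at 167 against 0.505 CPM (log2 ratio 6.81, interval 6.19 to 7.21), and to Pclaf, which binds PCNA, at 144 against 0.505 CPM (6.59, interval from 5.98). Pclaf was detected in 70.9% of dividing and 1.13% of paired resting cells, Hist1h2ap in 46.8% and 1.51%. Cyclin A2 (Ccna2) followed at 125 against 0.883 CPM, in 84.9% against 2.64% of cells. Also among the 15 highest were the spindle assembly factor Hmmr with 589 UMIs against 1 (log2 ratio interval 5.45 to 6.23), the midzone microtubule bundler Prc1 with 873 against 7, the kinetochore motor Cenpe with 549 against 2 (5.19 to 6.09) and the centralspindlin subunit Racgap1 with 508 against 2 (5.07 to 5.98). The rest of the 15 highest were Spp1, Aurkb, Esco2, Rrm2, Cdca3, Kif20a, Ckap2 and Pbk, with log2 ratios from 5.30 to 5.79. Spp1 alone of the 15 rested on 1 cell, which held 1415 of its 1488 UMIs, and without the 7 cells with other classes' markers its log2 ratio was -0.11. The globin genes Hba-a1, Hba-a2, Hbb-bs and Hbb-bt also drew at least 94.4% of their UMIs from 1 dividing cell.

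The upstream sequences of these genes are shown because genes that vary with the cell cycle often carry 2 short elements, CCAAT, which NF-Y binds, and TTTGAA, a core of the cell cycle genes homology region bound by the DREAM and B-Myb complexes. The 250 bases before the gene start were read from RefSeq entries on GRCm38.p6, the build (mm10) named in the submitters' processing notes. Entries were found for 9 of the 15 highest and 13 of the 15 lowest genes. The 4 highest with a single entry and the 2 lowest are printed 5′ to 3′ on the gene's strand, with CCAAT (or ATTGG on the other strand) and TTTGAA (or TTCAAA) in capitals.

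Pclaf (chr9:65890073-65890322, plus strand): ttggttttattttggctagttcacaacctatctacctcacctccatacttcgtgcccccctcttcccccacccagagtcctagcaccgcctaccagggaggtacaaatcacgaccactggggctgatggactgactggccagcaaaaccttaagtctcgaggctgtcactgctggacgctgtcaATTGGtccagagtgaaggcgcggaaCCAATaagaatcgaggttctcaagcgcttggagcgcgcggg

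Hmmr (chr11:40733438-40733687, minus strand): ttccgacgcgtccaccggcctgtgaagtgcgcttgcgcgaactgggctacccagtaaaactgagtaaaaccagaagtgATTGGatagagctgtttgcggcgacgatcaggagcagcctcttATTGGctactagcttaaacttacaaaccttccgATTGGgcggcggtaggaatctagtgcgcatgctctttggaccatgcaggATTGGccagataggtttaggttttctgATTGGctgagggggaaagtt

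Cenpe (chr3:135212313-135212562, plus strand): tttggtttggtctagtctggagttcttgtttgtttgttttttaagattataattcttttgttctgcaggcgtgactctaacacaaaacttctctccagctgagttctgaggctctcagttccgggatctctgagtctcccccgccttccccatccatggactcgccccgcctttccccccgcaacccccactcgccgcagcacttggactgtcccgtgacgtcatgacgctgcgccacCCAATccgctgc

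Racgap1 (chr15:99651657-99651906, minus strand): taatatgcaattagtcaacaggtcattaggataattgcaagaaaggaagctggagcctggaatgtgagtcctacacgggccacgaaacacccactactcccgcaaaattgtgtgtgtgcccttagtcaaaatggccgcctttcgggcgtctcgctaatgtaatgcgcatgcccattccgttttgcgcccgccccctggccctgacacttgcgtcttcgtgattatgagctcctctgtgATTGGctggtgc

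Angptl8 (chr9:21835260-21835509, plus strand): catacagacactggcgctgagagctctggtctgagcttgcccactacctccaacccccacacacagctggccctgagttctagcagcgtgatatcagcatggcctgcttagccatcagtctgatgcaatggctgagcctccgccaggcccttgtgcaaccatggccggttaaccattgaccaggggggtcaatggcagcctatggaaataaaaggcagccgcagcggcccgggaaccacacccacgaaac

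Thrsp (chr7:97417551-97417800, minus strand): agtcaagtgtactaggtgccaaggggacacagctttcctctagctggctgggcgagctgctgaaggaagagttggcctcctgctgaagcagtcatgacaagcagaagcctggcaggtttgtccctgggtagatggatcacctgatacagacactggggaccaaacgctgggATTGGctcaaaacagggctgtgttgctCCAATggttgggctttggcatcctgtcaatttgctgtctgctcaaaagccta

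Hmmr held 5 CCAAT letters in this window and Pclaf 2, Thrsp also held 2, and Angptl8 held neither element. Over all 32851 entries, CCAAT was in 33.8% and TTTGAA in 16%. For genes of at least 10 CPM in P14 the shares were 36.3% and 11.1%. Among the 11 entries of the highest genes, 10 held CCAAT (90.9%) and 3 held TTTGAA (27.3%). Among the 15 entries of the lowest genes, 5 held CCAAT (33.3%) and 0 held TTTGAA. By list, CCAAT was in 13 of 15 entries for mitotic cyclins and kinases, 15 of 21 for spindle genes, 28 of 46 for replication genes and 0 of 13 for acute phase genes. TTTGAA was in 7 of 14 entries each for cytokinesis and for anaphase genes and in 6 of 46 for replication genes, but in 2 of 19 for kinetochore genes (10.5%) and in 3 of 9 for pericentral genes (33.3%), which are no cell cycle genes. High CCAAT shares were not limited to cell cycle lists, since cholesterol synthesis genes had it in 13 of 16 entries and unfolded protein response genes in 12 of 15. A match is a run of letters and not a shown binding site.

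All 21 mitotic cyclins and kinases listed outside the rule had a higher CPM in dividing cells, with summed levels of 1149.6 against 95.2 CPM. Of the 17 with a mean of 10 CPM, 16 were under 10 CPM in resting cells and passed through the dividing cells. The median log2 ratio of the 17 was 4.45. Ccnb2, the second B-type cyclin, was at 145 against 3.53 CPM, and Aurkb, the kinase of the chromosomal passenger complex, at 60.7 against 0.252 CPM. Cks2, a small Cdk-binding protein, had the lowest ratio of the list at 1.62, from 62.3 CPM in resting to 193 CPM in dividing cells. All 22 spindle and motor genes were likewise higher, at summed levels of 2798 against 145 CPM (17 passed 10 CPM, 12 of them under it in resting cells, median 4.59). The beta tubulin genes Tubb5 and Tubb4b were the most abundant, at 558 against 22.2 and 536 against 33.9 CPM. Stmn1, which destabilises microtubules, was at 497 against 23.1 CPM and was found in 98.5% of dividing cells.

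All 21 kinetochore genes had a higher CPM in dividing cells (18 passed, 14 of them under 10 CPM in resting cells, median 4.17). Cenpe and Knl1 had log2 ratios of 5.81 and 5.21, and Cenpm of 2.56. Knl1 is the scaffold that binds the checkpoint kinase, and had 399 against 3 UMIs (interval 4.59 to 5.58). The centromeric histone Cenpa was at 154 against 8.2 CPM. All 12 cytokinesis genes were higher, and the 9 that passed, each under 10 CPM in resting cells, had a median of 5.23. The summed level of the list was 524 CPM in dividing and 8.2 CPM in resting cells. Ect2, the exchange factor that activates RhoA at the cleavage plane, was at 66.4 against 0.757 CPM. All 15 genes of anaphase and chromatid separation had a higher CPM in dividing cells (12 passed, 9 of them under 10 CPM in resting cells, median 3.91). Smc4, a condensin subunit, was at 244 against 12 CPM. Pttg1, securin, was the nearest to level, with log2 ratio 0.16 (-0.15 to 0.47) and 21.1 against 18.8 CPM.

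All 48 replication genes had a higher CPM in dividing cells, at summed levels of 1437 against 274 CPM. The 31 that passed had a median of 1.99, and 24 of these were under 10 CPM in resting cells. Pcna, the sliding clamp, was at 102 against 17.3 CPM and Mcm6, a subunit of the helicase, at 113 against 32.8 CPM. Uhrf1, which helps copy DNA methylation behind the fork, had a log2 ratio of 3.97, and Rfc3, a clamp loader subunit, had the lowest of the 31 at 0.93. All 16 nucleotide synthesis genes were higher, 10 of the 13 that passed by at least 1.5-fold, beside 17.3% of all genes. The 13 had a median of 1.38, and 1 of them was under 10 CPM in resting cells. Both ribonucleotide reductase subunits led the list, Rrm2 at 115 against 1.51 CPM and Rrm1 at 146 against 14.9 CPM. Paics, a purine synthesis enzyme, had the lowest ratio at 302 against 237 CPM. All 21 histone and chromatin packaging genes had a higher CPM (17 passed, 6 of them under 10 CPM in resting cells, median 2.37). H2afz, a variant histone H2A, was the most abundant at 1194 against 183 CPM, and Hmgb2 went from 11.9 CPM in resting to 353 CPM in dividing cells.

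The genes that act before S phase divided into those that were high and those that were not. In the list of G1 cyclins and inhibitors 7 of 17 were at least 1.5-fold higher, beside 17.3% of all genes. The 17 are of 19 listed, and 4 of the 17 were under 10 CPM in resting cells. The median of 0.34 (0.11 with TMM factors) was near that of all genes. Cyclin D1 (Ccnd1) was lower, at 89.4 against 112 CPM (log2 ratio -0.32, interval -0.46 to -0.17), as was its kinase Cdk6 at 45.6 against 59.2 CPM (-0.37, -0.56 to -0.17). Ccnd1 was not lower throughout: among dividing cells with 6 to 12 UMIs of the rule genes per 10000 it was at 150.2 CPM (129 to 173), above all resting cells at 107 (105 to 110), and above 24 per 10000 at 53.2 CPM (44.5 to 63.1). Cdk4 and Ccnd3 went the other way. Cdk4 was at 24.3 CPM in all resting cells. In dividing cells at 3 to 6, 6 to 12, 12 to 24 and above 24 per 10000 it was at 37.5, 50.6, 44.9 and 34.6 CPM. Ccnd3 was at 34.3 CPM in all resting cells and at 58.6, 41, 41.3 and 39.9 CPM in those groups. The Cdk4 and Cdk6 inhibitors Cdkn2c and Cdkn2d were the highest of the list, at 45.1 against 3.66 and 26.4 against 2.14 CPM. The imprinted inhibitor Cdkn1c was nearly level at 106 against 103 CPM (0.05, -0.089 to 0.19). Of cell cycle transcription factors 7 of 9 were at least 1.5-fold higher, of 19 listed, beside 17.3% of all genes. Under 10 CPM in resting cells were 7 of the 9. Foxm1, which drives mitotic genes, was at 30.3 against 0.505 CPM (3.75 to 4.80) and E2f8, a repressor of the E2F family, at 28.5 against 0.757 CPM (3.45 to 4.55).

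**Figure D1:**
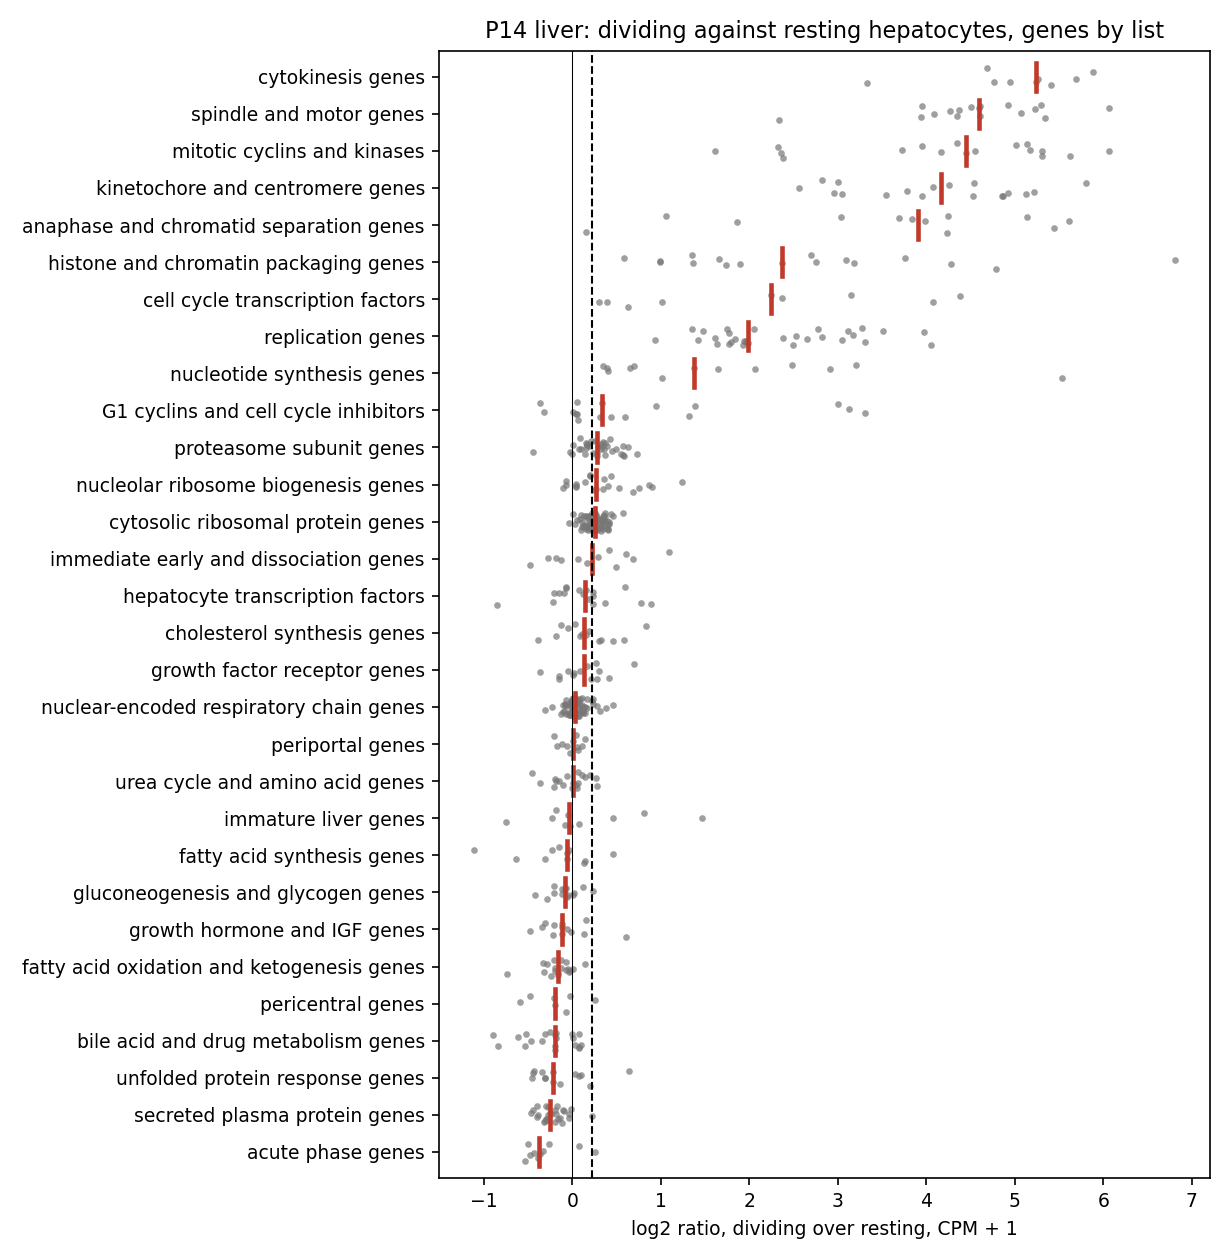
Log2 ratio of CPM plus 1 in 265 dividing over 265 paired resting P14 hepatocytes, for each gene of at least 10 CPM in 30 lists. Grey points are genes, red bars list medians, the dashed line is the median of all 6927 genes (0.22) and the thin line marks 0. The cytokinesis, spindle, mitotic and kinetochore lists lie at the right with medians from 4.17 to 5.23, and the acute phase list lies at the left at -0.38.

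Lists of secreted proteins were lower by small amounts. Of 10 acute phase genes at 10 CPM or more, of 15 listed, 8 were below 0 and 0 passed 1.5-fold (median -0.38, -0.62 with TMM factors). Of all 15, 7 had a higher CPM in dividing cells and 8 a lower one. Haptoglobin (Hp), which binds free hemoglobin, was at 3527 against 4995 CPM, and the fibrinogen chain Fgb at 2863 against 3982 CPM. Of 28 plasma protein genes 27 were below 0 (median -0.25, -0.48 with TMM factors), and together the list took 17.0% of UMIs outside the mitochondrial and rule genes in dividing and 19.7% in resting cells. All genes above 1000 CPM had a median of -0.12. Of all 14961 genes with a UMI, 4598 had a lower CPM in dividing cells. Free RNA carried the plasma protein list at 133947 and the acute phase list at 9744 summed CPM. In dividing cells these were 169836 and 13278, and in paired resting cells 197271 and 17583. The part of free RNA was not tested. Ahsg, a fetuin, was at 35951 against 41229 CPM and complement C3 at 4599 against 6239 CPM. The chaperones Calr and Hspa5 of the unfolded protein response were lower as well, at -0.44 (-0.51 to -0.38) and -0.46 (-0.53 to -0.39). Their list had a median of -0.21 (-0.44 with TMM factors). In it 1 of 14 genes, Sdf2l1, was at least 1.5-fold higher, beside 17.3% of all genes.

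The 15 lowest of the 65 lower genes are given by name, 7 of them with their levels. Angptl8, a feeding-induced regulator of lipoprotein lipase, had the lowest ratio of all 6927 genes, at 21.1 against 50.6 CPM (-1.22, -1.48 to -0.97). Thrsp, which promotes lipogenesis, was at 9.56 against 21.7 CPM (-1.48 to -0.74) and Alas1, the rate-limiting enzyme of heme synthesis, at 56.6 against 121 CPM (-1.24 to -0.92). Cyp8b1, which directs bile acid synthesis to cholic acid, was at 67 against 125 CPM (-1.04 to -0.74) and Cyp7a1, the rate-limiting enzyme of bile acid synthesis, at 45.3 against 81.6 CPM (-1.02 to -0.65). Nr1i3, the nuclear receptor CAR of drug metabolism, was at 94.2 against 169.9 CPM, and Car5a, a mitochondrial carbonic anhydrase, at 33.3 against 64.8 CPM. The rest of the 15 lowest were Tcp11l2, Mfsd4b1, Nat8f2, Slc17a8, Tmem150a, 1700018L02Rik, Flad1 and Rgs16, with log2 ratios from -1.03 to -0.85. With cells thinned to 5000 UMIs the ratio of Tcp11l2, which rests on 61 against 132 UMIs, turned to 0.19.

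Of bile acid and drug enzymes 3 of 21 were at least 1.5-fold lower, beside 0.938% of all genes (median -0.19, -0.43 with TMM factors). So were 2 of 11 fatty acid synthesis genes (-0.059, -0.30 with TMM factors), 1 of 19 fatty acid oxidation genes (-0.16, -0.40 with TMM factors), 0 of 19 urea cycle genes (0.0077, -0.23 with TMM factors) and 0 of 14 gluconeogenesis genes (-0.076, -0.31 with TMM factors). Cps1, the first enzyme of the urea cycle, was at 2334 against 2433 CPM and Pck1, of gluconeogenesis, at 2503 against 2617 CPM. Cps1 and Pck1 thus stayed within 0.064 log2 units of the resting level on the CPM scale. Not all enzymes did, since Slc37a4 of the gluconeogenesis list was at -0.42 (-0.57 to -0.28). In that list 4 of 14 genes had a higher CPM in dividing cells and 10 a lower one. Cyp4a10, an omega-hydroxylase induced by PPAR-alpha, had the lowest ratio of the 19 oxidation genes at 83.9 against 140.0 CPM. Cholesterol synthesis genes had a median of 0.14, which TMM factors turned to -0.091. Idi1 was at 21.8 against 11.7 CPM (0.84, 0.49 to 1.19) and Hmgcs1, the enzyme that makes HMG-CoA, at 204 against 136 CPM (0.58, 0.47 to 0.69). Abundant transcripts of the immature liver were near level: H19, an imprinted RNA, took 9929 against 10265 CPM, and alpha-fetoprotein (Afp) 615 against 700.1 CPM. In that list Bex1 was higher at 1.47 (1.03 to 1.91) and Meg3 lower at -0.75 (-1.02 to -0.49).

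Cytosolic ribosomal protein genes had a higher median than all genes of like level, by a small amount. They had a median of 0.26, with 79 of 80 above 0 and 0 at 1.5-fold, beside 0.022 for all genes at 300 to 1000 CPM and -0.12 above 1000. With TMM factors, which move all genes down, their median was 0.017. They took 6.88% of UMIs outside the mitochondrial and rule genes in dividing and 5.75% in resting cells. Of all 14961 genes with a UMI, 10363 had a higher CPM in dividing cells. Free RNA carried the ribosomal list at 101581 summed CPM, against 57463 in paired resting and 68790 in dividing cells. Fatty acid oxidation genes lay otherwise, at 10240 CPM in free RNA, 9188 in resting and 8064 in dividing cells. The part of free RNA was not tested. Proteasome genes had a median of 0.28 (0.049 with TMM factors), and the respiratory chain genes 0.034 (-0.20 with TMM factors, which turns the sign). Of nucleolar genes 5 of 21 were at least 1.5-fold higher, near the 17.3% of all genes. The nucleolar proteins Npm1 and Ncl were at 328 against 180.0 and 258 against 160.1 CPM. Of hepatocyte transcription factors, Foxa2 was at 98.1 against 56.9 CPM (0.78, 0.61 to 0.94), Hnf4a at 280.3 against 217 CPM, and 3 of 18 were at least 1.5-fold higher and 1 lower, again near the 17.3% of all genes for the higher ones. The receptors of the liver mitogens, Met for HGF and Egfr for EGF, differed little, with log2 ratios of 0.22 (0.023 to 0.41) and -0.051 (-0.23 to 0.13).

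The 265 cells were not alike, and they were divided by the level of the rule genes into bands of 66 cells at 3 to 6 per 10000, 49 at 6 to 12, 80 at 12 to 24 and 70 above 24. The edges were set after the data were seen, and since the bands use genes of the same cells, these values are a description. The cytokinesis list grew with each band, from 130.1 to 333, 604 and 866 summed CPM. The replication list did not: it stood at 1259, 1640.4, 1722 and then 1224 CPM (1181 to 1268). Genes of the start of S phase, chosen after their values were seen, had their highest values at 6 to 12 (Ccne2, Cdt1 and E2f1) or at 12 to 24 (Ccne1, Mcm3 and Mcm7). Cyclin E2 (Ccne2) was at 32.9 CPM (23.6 to 44.7) at 6 to 12 and 3.63 (1.66 to 6.88) above 24, close to the 3.37 of resting cells. Cdt1, which loads the MCM helicase, was at 45 (34 to 58.4) and 6.04 CPM (3.38 to 9.97). Pcna was at 129 CPM at 12 to 24 and 62.4 above 24, and E2f1 went from 32.1 at 6 to 12 to 10.9 CPM.

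Plk1 and Kif20a were higher in each further band. The kinase Plk1 was at 5.51, 22.5, 57.9 and 102 CPM over the 4 bands, and the cytokinesis kinesin Kif20a at 24, 44.2, 62.8 and 103. Across the 265 cells, the share of UMIs from replication genes and from Ccnb2, Plk1, Aurka, Kif20a and Ccnf had Spearman's rho -0.12 and Pearson's r -0.24. For replication with the cytokinesis list the values were 0.23 and 0.034, of the other sign, and for kinetochore with cytokinesis genes 0.83 and 0.79. The 5 genes were chosen after their values were seen. These cells share 1 library and the genes of the rule. Hepatocyte lists differed in their course: acute phase genes were at 17317 CPM in resting cells and 12678 in the highest band, and pericentral genes at 4927 and 3283. Gluconeogenesis genes were at 10188 and 10182 CPM, and urea cycle genes at 12807 and 12461. The bands differed in depth, with medians of 35928, 29589, 35314.5 and 44123.5 UMIs, and in mitochondrial share, with 21.8, 24.1, 22.1 and 19.2%, and the part of these in the values was not tested.

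**Figure D2:**
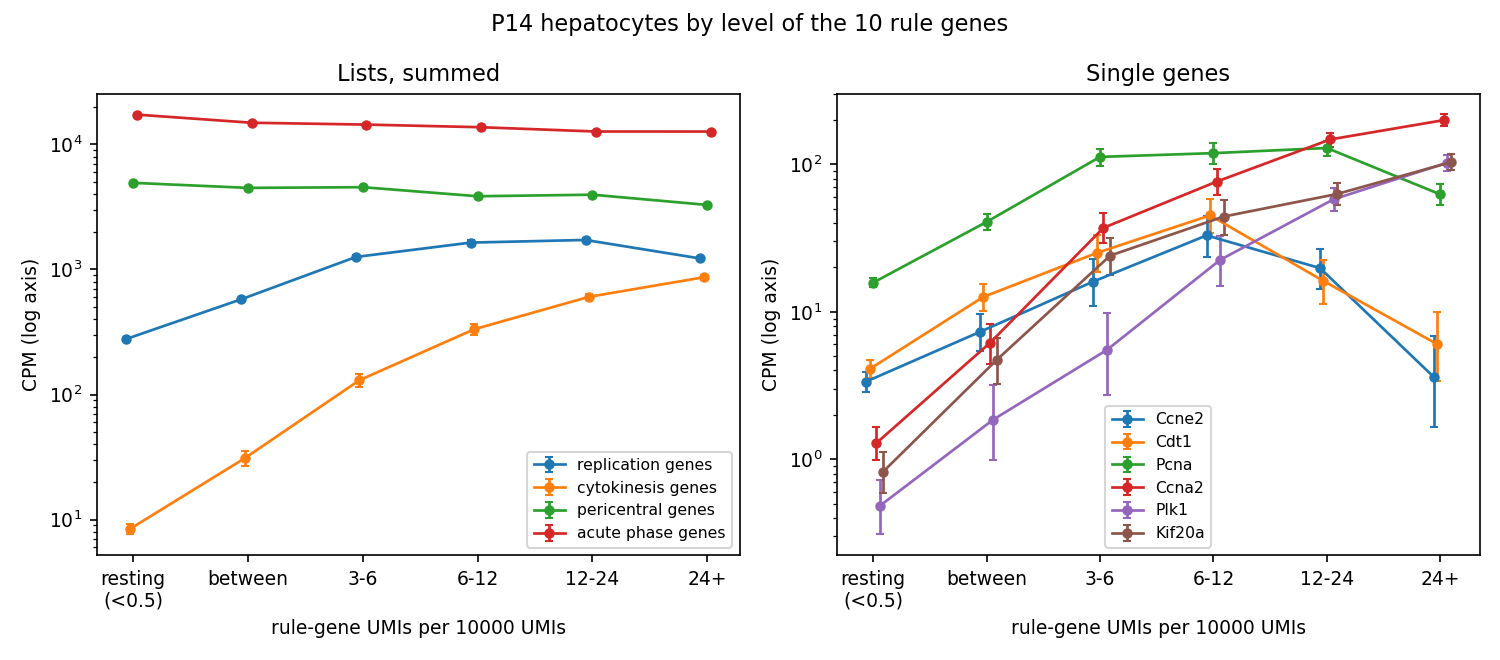
CPM on a log axis in P14 hepatocytes grouped by the level of the 10 rule genes: resting (1572 cells), between (269) and 4 bands of dividing cells (66, 49, 80 and 70). Points are summed counts over the cells of a band and bars are exact 95% Poisson intervals. Cytokinesis genes, Plk1 and Kif20a go up at each step, while Ccne2 and Cdt1 are highest at 6 to 12 and go down to 3.63 and 6.04 CPM in the last band.

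With every cell thinned to 5000 UMIs, at least 3 replication genes were detected in 170 of the 265 dividing cells (64.2%, exact binomial interval 58.1 to 69.9%) and in 33 of the 265 paired resting cells (12.5%, 8.73 to 17.0%). In 34 P14 barcodes with at least 1% of UMIs from S100a8 and S100a9, genes of neutrophils (median 9009 UMIs before thinning) it was 6 (17.6%, 6.76 to 34.5%). These barcodes are shallower than the paired resting cells (median 37807 UMIs), so they are no matched background. The 55 such barcodes named with the rule genes also carried those genes at 6.21 per 10000 UMIs. The part of free RNA in the share of resting cells was not tested. Free RNA carried the list at 529 summed CPM, against 274 in paired resting and 1437 in dividing cells. The 269 cells between the groups stood between them in replication and cytokinesis genes, with replication genes at 577 CPM against 278 in all resting cells, and cytokinesis genes at 30.9 against 8.4 CPM.

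Dividing cells were more frequent among hepatocytes with a low pericentral share of zone transcripts. Hepatocytes near the portal vein express enzymes of urea synthesis and gluconeogenesis, those near the central vein Cyp2e1 and glutamine synthetase, so each P14 hepatocyte, thinned to 5000 UMIs, was placed by the pericentral share of its UMIs from both lists and the 2106 cells were cut into 3 ranges of 702. At least 3 of the 10 rule genes were found in 92 cells of the most periportal range (13.1%, interval 10.7 to 15.8%), 67 of the middle (9.54%, 7.47 to 11.96%) and 41 of the most pericentral (5.84%, 4.22 to 7.84%). In cells of 5000 UMIs this is a stricter cut than the rule at full depth. The ranges are cuts of a score, with 372 hepatocytes within 5 points on either side of the lower edge of the middle range and 300 around that of the most pericentral one. Median depth was 39949.5, 37530 and 39139 UMIs, and the mitochondrial share 21.1, 20.8 and 19.7%. The zone genes also differ between the compared cells, since Cyp2e1 was at 1724 against 2601 CPM and Gulo, of ascorbate synthesis, at 263 against 367, so a lower pericentral score in dividing cells and a portal position cannot be told apart here. The periportal genes Arg1 and Gls2 were at 1014 against 1008 and 251 against 228 CPM. The list medians moved with the cells compared: with 10 to 20% mitochondrial UMIs the pericentral list had a median of 0.0026 (-0.19 with all cells) and the periportal list of -0.22 (0.0077 with all cells). The periportal median was -0.10 with matching on the mitochondrial share and -0.23 with TMM factors.

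At equal depth and 10 to 30% mitochondrial UMIs the P14 share stood near that at 24 h after PHx, but not under 10%. With cells thinned to 5000 UMIs, the rule held for 204 of 2106 P14 hepatocytes (9.69%, 8.46 to 11%), 4 of 925 (0.432%, 0.118 to 1.1%) in the unoperated adult, and among PHx cells for 107 of 1170 at 24 h (9.15%, 7.56 to 10.9%), 240 of 719 at 48 h (33.4%, 29.9 to 37%) and 35 of 771 at 96 h (4.54%, 3.18 to 6.26%). The zone counts come from another random thinning and do not sum to 204. The P14 and 24 h intervals overlap, and the others lie apart from P14. Each is 1 library, so these are differences between libraries. Without thinning the P14 share was 12.6%, 11.2 to 14.1%. The cut of 10 to 30% mitochondrial UMIs also bears on the share: of 446 P14 barcodes above 30% that pass the other criteria, 68 were dividing (15.2%, 12.04 to 18.9%), and of 124 under 10%, 5 were (4.03%, 1.32 to 9.16%). At 24 h after PHx the share under 10% was 14.3% (10.7 to 18.6%), apart from that of P14, and above 30% it was 11.3% (8.52 to 14.5%). The shares under 10% and above 30% given so far are without thinning. Thinned to 5000 UMIs, the shares under 10% were 3.23% in P14 and 10.4% at 24 h.

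**Figure D3:**
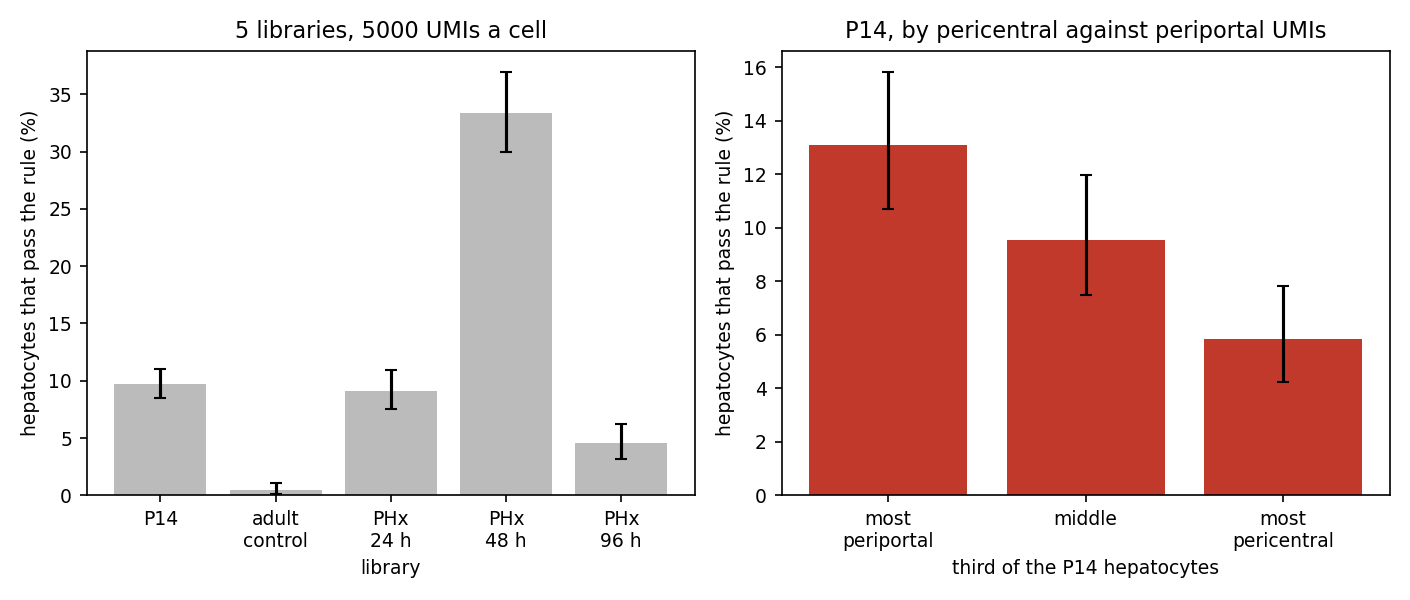
Left, share of hepatocytes that pass the rule for dividing cells after thinning to 5000 UMIs, in the 5 libraries (1 library each). Right, the share in P14 after another random thinning, in 3 ranges of the pericentral share of zone UMIs with 702 cells each. Bars start at 0 and error bars are exact 95% binomial intervals. P14 stands at 9.69% beside 0.432% in the adult control, and in P14 the share goes from 13.1% to 5.84%.

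The genes of the P14 cells were also compared between dividing and resting hepatocytes of the regenerating adult liver, in the PHx libraries. Their dividing cells were picked by the same 10 genes, and the gene lists were chosen with results of these libraries known, so the lists are not independent of them. The same rule gave 171, 191 and 72 pairs of dividing and resting cells at 24, 48 and 96 h after PHx. At 48 h there were 302 dividing and 289 resting cells, so only 191 of the 302 were paired. The dividing cells left over at 48 h are in none of the paired values. At 24 and 96 h every dividing cell was paired. With the library as a block, edgeR's quasi-likelihood test compared the summed counts of the pairs. The 3 libraries are different times, so the spread holds time as well as animals, and the fit leaves 2 residual degrees of freedom. Of 10052 genes tested, 1225 (12.2%) were higher in dividing than in resting cells and 1140 (11.3%) lower, at an adjusted p under 0.05. Below, a gene that rose or fell after PHx differed in this way between dividing and resting cells. No change against the unoperated liver was tested. The test uses TMM factors, so its differences need not match the ratios of CPM printed beside them. Beside these 2365 calls, DESeq2 made 1063, edgeR 1498 without the 48 h library, 885 on cells thinned to 5000 UMIs and 512 on cells with 10 to 20% mitochondrial UMIs, a fit of 2 libraries since 96 h then had 3 pairs. Of the 1193 tested among the 1196 genes higher in P14, 678 rose (56.8%) and 7 fell. The 678 are 56.7% of the P14 genes and 55.3% of the genes that rose after PHx. Of the 53 tested among the 65 lower genes, 33 fell (62.3%) and 1 rose. These 33 are 50.8% of the P14 genes but 2.89% of the 1140 genes that fell after PHx. Of the 6870 genes in both comparisons, 12.7% rose and 14.8% fell. The same 10 genes picked the dividing cells of both sides. In P14, 598 genes under 10 CPM in resting cells passed only through the dividing cells. Both overlaps are therefore descriptions.

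The mitosis lists were higher in the dividing cells of the PHx libraries as well. Since genes of late cell cycle phases picked these cells, the direction of these lists is a description, and their p-values are no independent support. All 21 mitotic cyclins and kinases, all 22 spindle genes, all 21 kinetochore genes and all 11 cytokinesis genes tested rose. Of 15 anaphase genes 14 rose, beside 12.2% of all genes tested. Foxm1 rose (edgeR log2 difference 5.52 ± 0.31 SE, adjusted p = 2.40e-08), as did Hmmr (edgeR log2 difference 7.64 ± 0.27 SE, adjusted p = 3.50e-10). Of 46 replication genes 40 rose and 1 fell, with library medians of 1.90, 0.93 and 2.55 at 24, 48 and 96 h beside 1.99 in P14. Cyp8b1, low in dividing P14 cells, was also lower in dividing cells of the PHx libraries (edgeR log2 difference -1.11 ± 0.12 SE, adjusted p = 1.17e-05). It was at 24 against 52 CPM at 24 h, 23.4 against 43.2 CPM at 48 h and 124 against 205 CPM at 96 h. The dividing cells were lower in all 4 libraries. Angptl8 fell (edgeR log2 difference -1.63 ± 0.20 SE, adjusted p = 5.18e-05) and so did Thrsp (edgeR log2 difference -1.20 ± 0.13 SE, adjusted p = 1.46e-05). Cyp7a1 did not pass the test (edgeR log2 difference -0.33 ± 0.16 SE, adjusted p = 0.153): it was at 34.4 against 28.9 CPM at 24 h, 156 against 236 CPM at 48 h and 200.04 against 166 CPM at 96 h, lower in dividing cells only at 48 h and in P14.

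In the PHx libraries 26 of 28 plasma protein genes and 13 of 15 acute phase genes were lower in dividing cells, beside 11.3% of all genes. The library medians of the acute phase list were -0.21, -0.18 and -0.74, beside -0.38 in P14. Portal and urea cycle lists, near level in P14 by CPM (-0.23 for both medians with TMM factors), had medians below 0 in the PHx libraries. At 48 h the periportal median was close to 0, at -0.029. The test of the difference between P14 and PHx called 0 of 12 periportal and 0 of 20 urea cycle genes at an adjusted p of 0.05 in edgeR, with 4 and 5 at an unadjusted p under 0.05. Over all genes of that test, 5.41% had such an unadjusted p. In the test within the PHx libraries periportal genes fell in 10 of 12, with medians of -0.75, -0.029 and -1.29 beside 0.0077 in P14. Urea cycle and amino acid genes fell in 17 of 20. Hal, histidine ammonia lyase of the portal zone, fell (edgeR log2 difference -1.41 ± 0.15 SE, adjusted p = 1.48e-05), at 119 against 261 CPM at 24 h, 61.8 against 103 CPM at 48 h and 129.7 against 436 CPM at 96 h, and stood at 114 against 132 CPM in P14. Dividing and resting cells were far apart at 24 and 96 h and close in P14. With P14 cells of 10 to 20% mitochondrial UMIs the pericentral median was 0.0026 and not -0.19. After PHx pericentral genes rose in 4 of 14 and fell in 0, with medians of 0.41, -0.27 and 0.82 beside -0.19 in P14. Cyp2e1 itself did not pass (edgeR log2 difference -0.26 ± 0.15 SE, adjusted p = 0.258), at 726 against 564 CPM at 24 h, 843 against 1304 CPM at 48 h and 1523 against 1358 CPM at 96 h, by CPM higher in dividing cells at 24 and 96 h and lower at 48 h and in P14.

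Cholesterol synthesis genes were lower in dividing than in resting cells of the PHx libraries, while in P14 their median was near 0 under either scaling. After PHx 18 of 20 fell, with medians of -0.41, -0.70 and -0.57, beside 0.14 in P14. Hmgcs1 fell (edgeR log2 difference -1.02 ± 0.12 SE, adjusted p = 3.12e-05), at 797 against 1250.4 CPM at 24 h, 594 against 1321 CPM at 48 h and 656 against 990.2 CPM at 96 h, whereas in P14 it was at 204 in dividing and 136 CPM in resting cells, below every PHx value. Idi1 fell after PHx as well (edgeR log2 difference -0.93 ± 0.13 SE, adjusted p = 1.83e-04). The test of the difference itself did not call either gene, as given next.

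**Figure D4:**
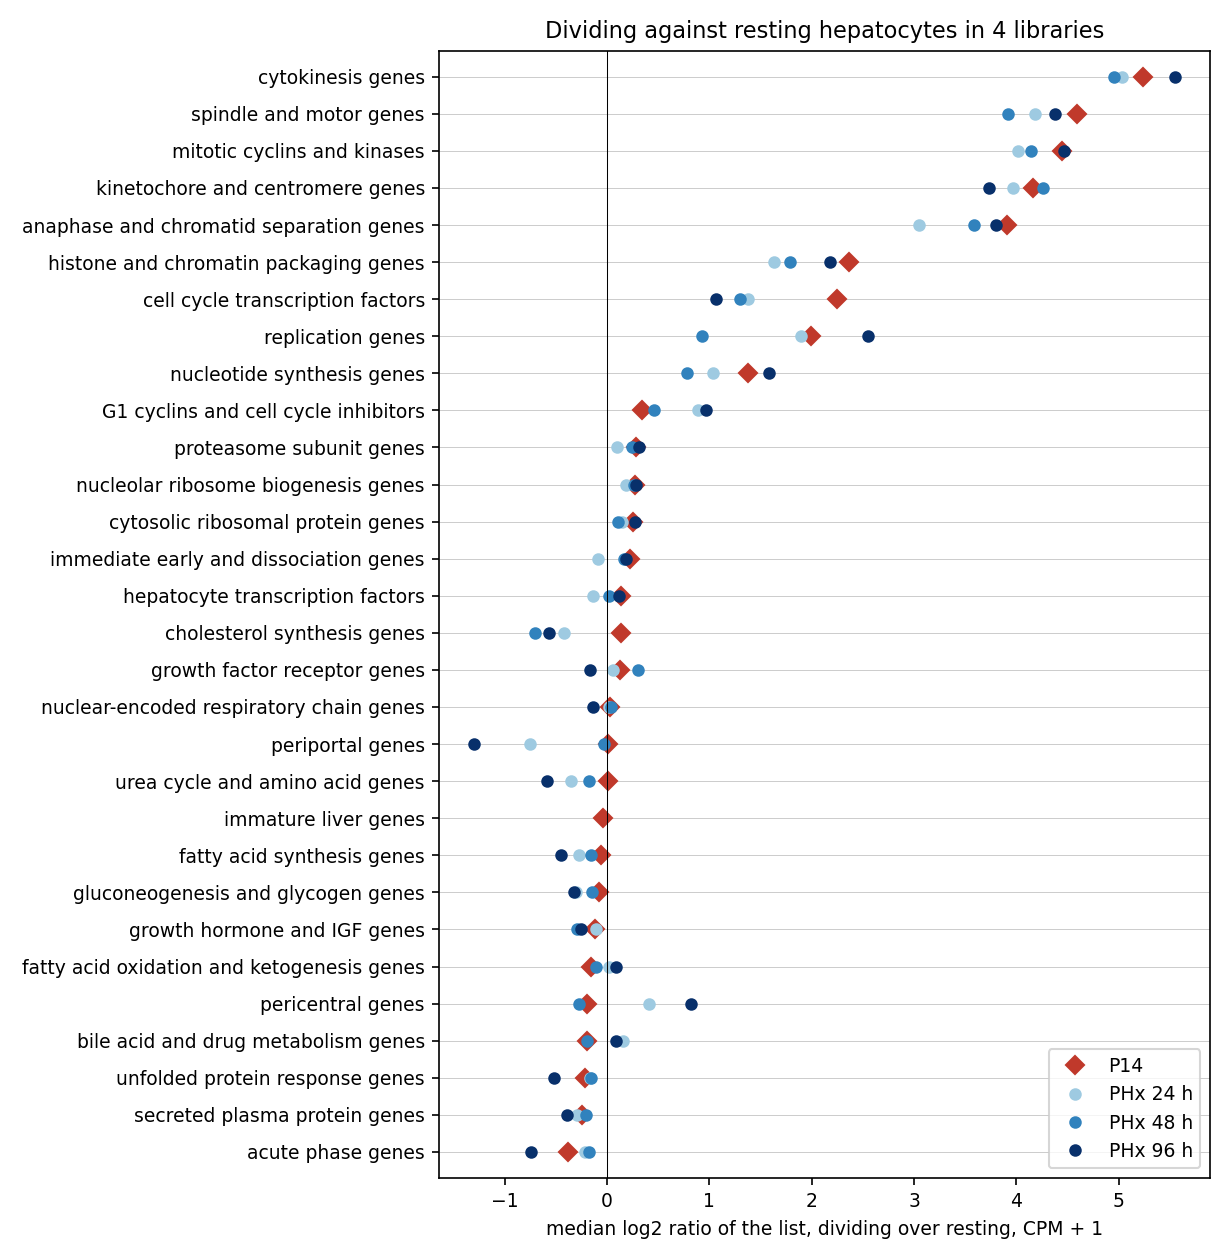
Median log2 ratio of CPM plus 1, dividing over resting hepatocytes, for 30 gene lists in P14 (red diamonds, 265 pairs) and at 24, 48 and 96 h after PHx (circles, 171, 191 and 72 pairs), for lists with at least 3 genes of 10 CPM. Each marker is 1 library. The all-gene median of a library, 0.22 in P14, is not taken off. For cholesterol synthesis P14 is at 0.14 and the PHx libraries at -0.41, -0.70 and -0.57.

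The difference between P14 and PHx was tested as an interaction over the 4 libraries. The 1 P14 library is then assumed to vary like the PHx libraries, and 2 residual degrees of freedom remain. Of 11037 genes, 16 (0.145%) passed an adjusted p of 0.05, 14 with a higher and 2 with a lower ratio in P14, and 597 (5.41%) had an unadjusted p under 0.05. The lowest p-values belonged to Hbb-bt (edgeR log2 difference 3.84 ± 0.37 SE, adjusted p = 2.14e-04), Spp1 (edgeR log2 difference 7.45 ± 0.74 SE, adjusted p = 2.14e-04) and Tmsb4x, a thymosin abundant in blood and endothelial cells (edgeR log2 difference 2.46 ± 0.25 SE, adjusted p = 2.14e-04). When the cells with at least 50 UMIs of other classes' markers were left out of all libraries, 0 of 10894 genes passed in edgeR and 593 had an unadjusted p under 0.05. The share unadjusted was then 5.44%. With all cells, DESeq2 called 4, and edgeR called 63, 43 or 117 without the 24, 48 or 96 h library. Without those cells Hbb-bt had a log2 difference of -0.019, but Tubb5 kept its size, at 1.98 before (adjusted p = 0.0287 in edgeR) and 1.95 after (adjusted p = 0.186). Tubb5 was at 608 against 129 CPM at 24 h, 519.6 against 96.8 CPM at 48 h and 341 against 29.1 CPM at 96 h and at 558 against 22.2 in P14, so P14 differed from 24 and 48 h more in resting than in dividing cells, and from 96 h more in dividing cells. Slc13a3, a dicarboxylate transporter, was lower, at -1.80 with all cells (adjusted p = 0.0366 in edgeR) and -2.07 without those cells (adjusted p = 0.0508).

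For the lists, the interaction gave few calls and is given as counts, to be read beside the 5.41% of all genes with an unadjusted p under 0.05. Of 20 cholesterol synthesis genes 13 had an unadjusted p under 0.05 and 0 an adjusted one, with a median difference of 0.70. Hmgcs1 came nearest (edgeR log2 difference 1.31 ± 0.24 SE, adjusted p = 0.05003), and Idi1 followed (edgeR log2 difference 1.52 ± 0.33 SE, adjusted p = 0.128). Pericentral genes had 5 of 14 at an unadjusted p under 0.05 (median -0.64), periportal genes 4 of 12 (0.63) and replication genes 15 of 48 (0.70), each with 0 adjusted calls. Cyp4a10 (edgeR log2 difference -1.17 ± 0.25 SE, adjusted p = 0.118) and Alas1 (edgeR log2 difference -0.96 ± 0.20 SE, adjusted p = 0.107), both lower in dividing P14 cells, did not pass. The spindle list had 1 call of 22, Tubb5, and cytosolic ribosomal protein, proteasome and nucleolar genes had 0 of 81, 0 of 37 and 0 of 25 even unadjusted.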

How the data were processed

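The authors deposited raw UMI counts per gene and barcode for 5 droplet libraries, with no cell filter, since every possible barcode is listed. Per the submitters' processing notes, bcl2fastq 2.17.1.14, Cell Ranger, Seurat 3.1 and build mm10 were used, and per the file headers the matrices come from software version 3.0.2. The annotation is not given in the sources used here. A library is the unit of replication, there is 1 per condition, and nothing in the labels says how many animals it holds. From these counts, hepatocytes and dividing cells were chosen by the thresholds given with the results, and counts were summed over dividing cells and over resting cells paired 1 to 1 on total UMIs, within 10%. Ratios are log2 of CPM plus a pseudocount of 1, for genes of at least 10 CPM, outside the 10 rule genes and the mitochondrial genes. Intervals are exact 95% Poisson or Clopper-Pearson intervals and cover counting error only. edgeR 4.0.16 (quasi-likelihood test, TMM, library as a block, Benjamini-Hochberg adjustment over all genes tested) in R 4.3.3 compared dividing with resting cells in the 3 PHx libraries. It also compared this difference in P14 with that in the PHx libraries. The SE printed with edgeR's differences was derived from the log2 difference and the F statistic, since the test itself gives none. The adult control had 4 dividing cells and entered no test. DESeq2 1.42.0, other filters, matching, pseudocounts and depths were alternatives. The code was tested on simulated data. Scrublet (scanpy 1.11.5) gave doublet scores, and the highest were left out only as an alternative. Members and gene lists were chosen with earlier results of these data known. Named genes are the 10 rule genes, the 15 highest and 15 lowest ratios, in each list the 3 most abundant and the 2 highest and 2 lowest, and up to 10 of lowest p called in the test between P14 and PHx. Genes outside that rule were chosen after their values were seen. The alternative that leaves out cells with at least 50 UMIs of other classes' markers was chosen after seeing the data.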

Additional observations from a re-analysis of the deposited data

Results flagged for a closer look

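The ratio of dividing to resting cells differed between P14 and the PHx libraries for 16 genes by edgeR's test of the difference. For the 9 of them with at least 10 CPM in P14, the log2 difference was 3.84 for Hbb-bt, 3.46 for Hbb-bs, 4.17 for Hba-a1 and 3.79 for Hba-a2, all globin genes. It was 7.45 for Spp1, 2.46 for Tmsb4x, 4.17 for Tmsb10, 1.98 for Tubb5 and -1.80 for Slc13a3. 1 P14 cell held at least 94.4% of the dividing cells' UMIs of each globin gene, and another cell held 95.1% of those of Spp1. Without the cells that held at least 50 UMIs of other classes' markers, 0 of the 16 passed, but Tubb5 was at 1.95 and Slc13a3 at -2.07, close to or beyond their values with all cells. Among P14 barcodes with over 30% mitochondrial UMIs, which the comparisons leave out, 15.2% met the rule for dividing cells (68 of 446), against 2 of 501 (0.399%) in the adult control. The shares in the same barcodes after PHx were 11.3% at 24 h, 21.5% at 48 h and 4.76% at 96 h. All these shares are without thinning, so the libraries are not compared at equal depth.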

How the results depend on the processing

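Dividing and resting sums were paired by library in both tests. Between conditions no paired analysis was possible because each has 1 library. With 10 to 20% mitochondrial UMIs 115 dividing cells remained in P14. Genes at least 1.5-fold higher numbered 679 with a pseudocount of 10 CPM, 256 with a minimum of 50 CPM, 2256 with a minimum of 1 CPM and 622 with TMM factors. Genes lower numbered 25, 20, 199 and 286 under the same 4 settings, 242 on cells thinned to 5000 UMIs and 132 with 10 to 20% mitochondrial UMIs. The calls after PHx (2365) numbered 1063 by DESeq2, 885 on thinned cells, 512 with 10 to 20% mitochondrial UMIs (2 libraries, since 96 h had 3 pairs), and from 1498 to 2456 with 1 PHx library left out. The 16 calls between P14 and PHx numbered 4 by DESeq2, 88 with no filter beyond 1 count, 33 with no matching, 6 on thinned cells, from 43 to 117 with 1 PHx library left out, and 0 without cells with other classes' markers. List medians with a pseudocount of 10 CPM were 2.27 (mitotic cyclins), 2.64 (spindle and motor), 2.19 (kinetochore), 2.34 (cytokinesis), 2.25 (anaphase), 1.48 (replication), 1.80 (histone) and 1.13 (cell cycle transcription factors). List medians with a minimum of 50 CPM were 5.01 (mitotic cyclins), 4.08 (spindle and motor), 3.00 (kinetochore), 5.88 (cytokinesis), 2.13 (histone), 0.0505 (G1 cyclins) and -0.20 (growth hormone and IGF). List medians with a minimum of 1 CPM were 4.36 (spindle and motor) and 1.20 (nucleotide synthesis). List medians with TMM factors were 4.36 (spindle and motor), 1.1405 (nucleotide synthesis), 1.89 (histone), 0.11 (G1 cyclins), -0.27 (immature liver), -0.23 (urea cycle), -0.40 (fatty acid oxidation), -0.30 (fatty acid synthesis), -0.43 (bile acid and drug metabolism), -0.39 (pericentral), -0.23 (periportal), -0.62 (acute phase), -0.0047 (immediate early), -0.48 (secreted plasma protein), -0.36 (growth hormone and IGF), 0.017 (cytosolic ribosomal protein), 0.049 (proteasome) and -0.20 (respiratory chain). List medians with 10 to 20% mitochondrial UMIs were 4.53 (kinetochore), -0.076 (urea cycle), -0.23 (fatty acid oxidation), 0.0026 (pericentral) and -0.22 (periportal). The list median at 5 per 10000 with 5 genes was 5.46 (cytokinesis). List medians on cells thinned to 5000 UMIs were 1.08 (nucleotide synthesis), 2.10 (histone), 0.62 (G1 cyclins), 1.29 (cell cycle transcription factors) and 0.056 (urea cycle). List medians with matching on the mitochondrial share too were -0.062 (urea cycle) and -0.10 (periportal). List medians without cells with 3 UMIs of leukocyte or B markers were -0.041 (urea cycle) and -0.041 (periportal). The list median with no matching was -0.052 (periportal). The list median without the highest doublet scores was -0.055 (periportal). Shares of dividing cells in percent without thinning were 12.6 (P14), 14.6 (PHx 24 h), 42 (PHx 48 h) and 9.34 (PHx 96 h). Shares of dividing cells in percent thinned to 10000 UMIs were 11.3 (P14), 13 (PHx 24 h), 39.9 (PHx 48 h) and 7.73 (PHx 96 h). Shares of dividing cells in percent with under 10% mitochondrial UMIs were 3.23 (P14), 0 (adult control), 10.4 (PHx 24 h), 29.5 (PHx 48 h) and 1.17 (PHx 96 h). Shares of dividing cells in percent with 10 to 20% mitochondrial UMIs were 0 (adult control), 12.7 (PHx 24 h) and 39.7 (PHx 48 h). Spp1 turned to -1.47 with matching on the mitochondrial share and -0.11 without cells with other classes' markers, Tcp11l2 to 0.19 on thinned cells, and the differences from PHx without those cells to -0.019 (Hbb-bt), -0.34 (Tmsb4x) and -0.11 (Hba-a2). Apart from fewer cells, UMIs, genes or libraries in the settings that remove them, the cause was not tested.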

Other observations

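The mitochondrially encoded genes, left out of the ratios, had log2 ratios of dividing to resting P14 cells from -0.13 (mt-Nd4l) to 0.076 (mt-Nd1).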
